A study of Mus musculus with 7 samples.

Results

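Lymphoid priming and the earliest steps towards B cells were followed through 10 genes, chosen by name: Flt3, Il7r, Dntt, Ikzf1, Satb1, Notch1, Cd79a, Cd79b, Blk and Cd22. Every probe set annotated with one of these symbols alone was taken, which gave 17 probe sets for the 10 genes, of 22626 non-control probe sets and 12393 genes named by a probe set of their own on the array. RNA was measured on 7 arrays, each from 1 sample of LSK cells of mouse bone marrow. This gate (lineage-negative, Sca-1-positive, c-Kit-positive) holds stem cells and early progenitors. The 4 Lkb1 KO samples (numbered 4 to 7) came from Lkb1 L/L mice that also carried rosa26CreERT2, a Cre recombinase that tamoxifen switches on and that the Rosa26 promoter drives, and the 3 Lkb1 WT samples (numbered 5 to 7) from Lkb1 L/L mice with no Cre. The C57BL/Ka-CD45.2:Thy-1.1 mice of both genotypes received tamoxifen, and marrow was taken 1 day after the course ended. Cre is thus present in KO alone, its own effect and that of Lkb1 loss cannot be told apart, and Cre from Rosa26 is not limited to blood cells. Whether each sample was a different mouse is not stated, so the p-values below rest on a spread between samples that may be technical. Neither age nor sex is given in the sources used.

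Lymphoid priming is the stage at which some multipotent progenitors begin to transcribe genes of the lymphoid programme while still inside the LSK gate. The receptor tyrosine kinase Flt3 marks these cells, the transcription regulators Ikaros (Ikzf1) and Satb1 promote the programme, and the interleukin-7 receptor (Il7r) carries the next step towards B and T cells. Signalling through the receptor Notch1 directs progenitors to the T lineage, while commitment to B cells brings the antigen receptor's signalling chains (Cd79a, Cd79b), the kinase Blk and the inhibitory co-receptor CD22.

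The 10 genes did not move as a block. Blk and Cd22, both dim on these arrays, fell in Lkb1 KO, to 0.608-fold and 0.641-fold of WT. The other 6 genes that could be tested, Flt3, Il7r, Dntt, Satb1, Notch1 and Cd79b, did not pass, and no gene rose. Ikzf1 and Cd79a lay below the filter on dim probe sets and were not tested.

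Sequences are shown for Cd22, the member with a promoter entry among those that fell, and for Cd79a, a gene whose probe set stayed at background. Each covers 250 bases before to 50 after an annotated start, from RefSeq on GRCm38.p6, and is written 5′ to 3′ on the gene's strand. Capitals mark matches, on either strand, to TGGGAA (a core bound by Ikaros and by Rbpj, the DNA-binding partner of Notch), CAGGTG (an E-box bound by E2A) and CCCNNGGG (a core of the EBF1 site). The Cd22 window lies at chr7:30878979-30879278 on the minus strand and the Cd79a window at chr7:24897247-24897546 on the plus strand. The Cd22 window is inside the gene's annotated span (30865404 to 30880342), so its start is an internal one and not the gene's outermost.
Cd22: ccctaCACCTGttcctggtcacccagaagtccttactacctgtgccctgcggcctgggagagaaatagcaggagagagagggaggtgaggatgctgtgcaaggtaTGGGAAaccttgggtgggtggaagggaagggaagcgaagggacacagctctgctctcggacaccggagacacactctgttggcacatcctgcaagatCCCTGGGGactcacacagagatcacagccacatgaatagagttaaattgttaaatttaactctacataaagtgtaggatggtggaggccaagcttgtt
Cd79a: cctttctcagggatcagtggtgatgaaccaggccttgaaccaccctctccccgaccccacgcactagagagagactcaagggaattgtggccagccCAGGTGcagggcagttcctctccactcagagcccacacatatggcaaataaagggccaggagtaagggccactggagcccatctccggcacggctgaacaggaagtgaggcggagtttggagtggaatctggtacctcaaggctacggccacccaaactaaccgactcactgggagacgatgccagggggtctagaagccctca
The Cd22 window holds 1 match to each of the 3 motifs, and the Cd79a window holds 1 match to CAGGTG and none to the others. TGGGAA occurs in 25.6% of 32851 promoter windows of this length, CAGGTG in 20.2% and CCCNNGGG in 13.7%, and the matches, which may overlap, describe these letters only. Of the 10 genes, 8 had 13 windows in the table, and TGGGAA was found in 3 of the 13, CAGGTG in 4 and CCCNNGGG in 2. Blk and Cd79b had no entry.

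The arrays differed in overall brightness as deposited. Their trimmed mean signal, without 2% at each end, ranged between 362.5 and 428 on KO arrays and between 230.3 and 342.4 on WT arrays (p = 0.0286 by a two-sided exact permutation test, the smallest possible with 7 arrays), and the median gene tested was 0.34 log2 units higher in KO. Signals were therefore quantile-normalized, and levels below are normalized signals or log2(normalized signal + 16), so that every change is relative to the typical gene and understated for dim genes. Of 8077 genes tested with limma, 2.96% fell and 2.48% rose in KO at a Benjamini-Hochberg adjusted p under 0.05, 5.44% in all, and 25.3% had an unadjusted p under that value. A background level of 13.64 signal units was set from probe sets of unadded control transcripts. Stk11, the gene of Lkb1, averaged 6.82 ± 0.33 over the 4 KO arrays and 7.38 ± 0.24 over the 3 WT arrays (log2 level ± SD, limma adjusted p = 0.117). Its second probe set, below the filter, differed by 0.70 the other way and exceeded background on 3 of 4 KO arrays and 1 of 3 WT arrays. Where the probe sets lie relative to the deleted exons is unknown, so this is no check of genotype.

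**Figure D1:**
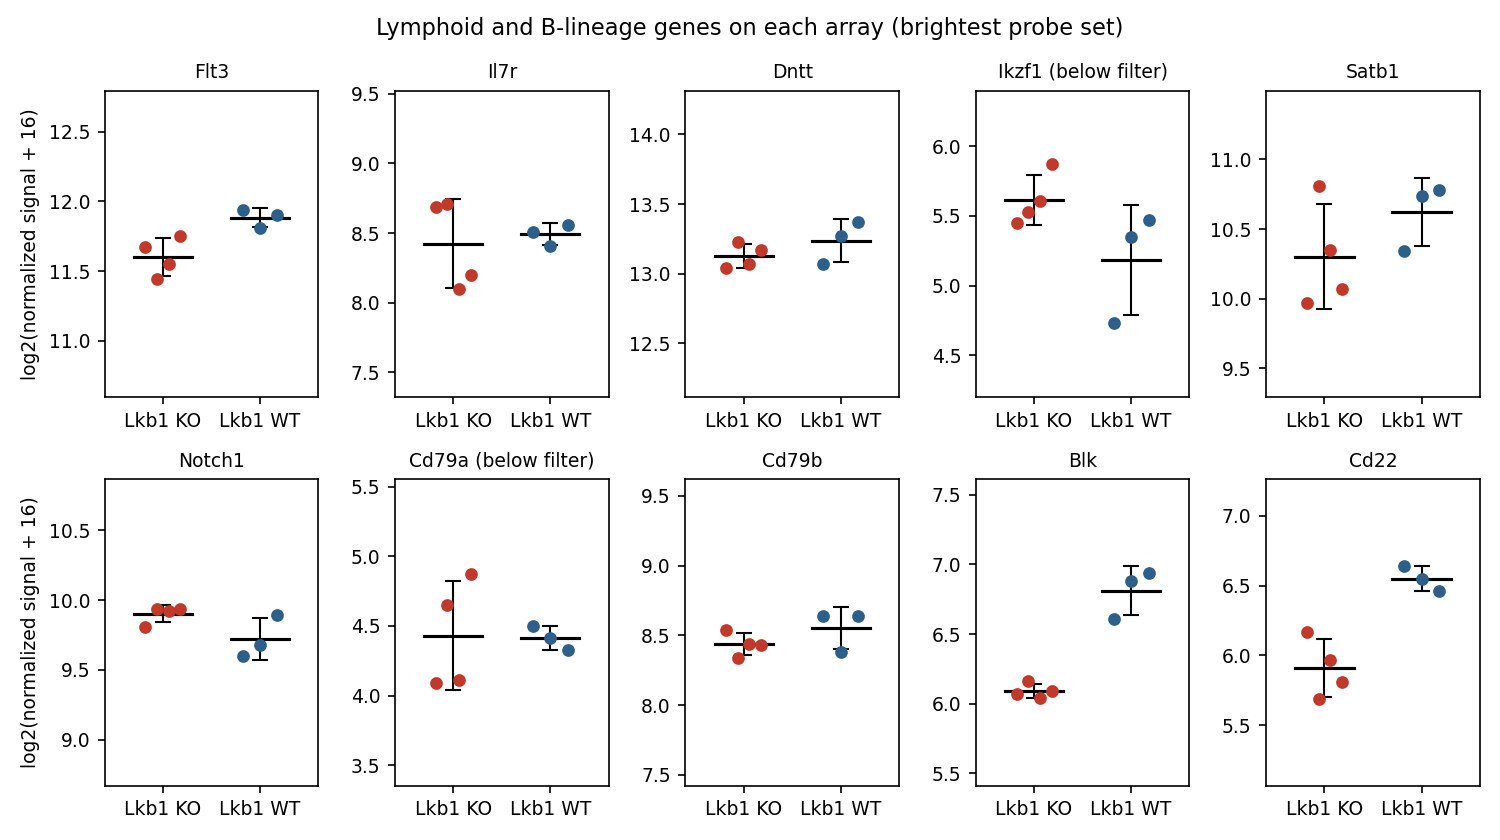
Level of each of the 10 genes on each array, as log2(normalized signal + 16), for the probe set of highest mean. Points are arrays (4 Lkb1 KO in red, 3 Lkb1 WT in blue), and black bars give mean ± SD. KO and WT points are apart for Flt3, Blk and Cd22 and overlap for the others.

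Flt3 encodes the receptor for FLT3 ligand, and its expression in LSK cells marks progenitors that have started to lose stem cell potential. Its single probe set (chromosome 5, 147330741 to 147400489 on GRCm38.p6) had normalized signals of 3238.5, 2772, 2972 and 3419 on Lkb1 KO 4 to 7, against 3915, 3572 and 3797 on Lkb1 WT 5 to 7. Every KO array lay below every WT array. The level was 11.60 ± 0.13 (SD, n = 4) in Lkb1 KO, against 11.88 ± 0.07 (SD, n = 3) in Lkb1 WT, a difference of -0.28 (95% interval -0.51 to -0.05) that did not pass (limma adjusted p = 0.134). In the signals as deposited the groups overlapped and the difference was 0.10.

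Il7r, the alpha chain of the interleukin-7 receptor, is needed for the growth of early B and T cell precursors in mice. Its brighter probe set (1448575_at) had normalized signals of 396.8, 403.8, 257.9 and 278.1 on Lkb1 KO 4 to 7, against 349.6, 325.2 and 361.2 on Lkb1 WT 5 to 7. The WT arrays lay between KO 4 and 5 above and KO 6 and 7 below. The difference was -0.07 (95% interval -0.46 to 0.32, limma adjusted p = 0.83), with an SD of 0.32 in KO and 0.07 in WT. KO 4 and 5 were also the KO arrays of higher Ighm, the immunoglobulin heavy chain gene of B cells, with deposited signals of 5870, 4384, 1252 and 1592 on KO 4 to 7. All Ighm values here are from the brightest of its 11 probe sets, and the array order on the others was not examined. In WT, Ighm was at 6447, 1822 and 2248 on WT 5 to 7. On the same deposited scale Il7r was at 505.1, 470.9, 273.2 and 294.2 on KO 4 to 7, against 354.6, 292.2 and 242 on WT 5 to 7, so that KO 4, KO 5 and WT 5 were highest in their groups for both genes. After normalization WT 7 was the highest WT array for Il7r, and the part of B cell RNA in the Il7r values was not tested. A second Il7r probe set (1448576_at) exceeded background on 2 of 4 KO arrays and 1 of 3 WT arrays and was not tested.

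Dntt encodes terminal deoxynucleotidyl transferase, which adds bases at the joints of rearranged antigen receptor genes and is switched on early in lymphoid priming. Its 3 probe sets gave different sizes of change. The brightest (1449757_x_at, whose suffix marks probes that can also match other transcripts) stood at 13.12 ± 0.09 (SD, n = 4) in Lkb1 KO, against 13.24 ± 0.15 (SD, n = 3) in Lkb1 WT, a difference of -0.11 (limma adjusted p = 0.529). Probe set 1450545_a_at, which covers more than 1 transcript form, differed by 0.00 (95% interval -0.37 to 0.37, adjusted p = 0.996 over 13575 probe sets in limma). Probe set 1420166_at had normalized signals of 840.5, 1069, 830.3 and 1063 on Lkb1 KO 4 to 7, against 974.7, 1446 and 1947 on Lkb1 WT 5 to 7. These overlapped, since WT 5 lay below KO 5 and 7, and the difference of -0.56 did not pass (limma adjusted p = 0.18 over probe sets). On all 3 probe sets the highest of the 7 arrays was WT 7, the dimmest array before normalization. No test here separates the 3 probe sets from each other.

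Ikzf1 encodes Ikaros, a zinc finger protein without which mice make no B cells. Its single probe set was dim, with deposited signals of 33.4, 32.2, 33.6 and 43.2 on Lkb1 KO 4 to 7, against 10.9, 23.8 and 20.9 on Lkb1 WT 5 to 7. All 4 KO arrays and 2 of 3 WT arrays exceeded background. KO signals were the higher ones as deposited, but after normalization KO 4, at 27.7, lay below WT 7, at 28.4. The mean log2 level was 5.61 in KO and 5.18 in WT, a difference of 0.43 that lay outside the test and did not pass when the filter was left off (limma adjusted p = 0.308).

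Satb1 encodes a chromatin organizer that promotes lymphoid fate in early progenitors. Its 3 probe sets, of which 2 derive from the same source sequence, differed by -0.36 (1416007_at), -0.32 (1416008_at) and -0.30 (1436182_at), KO minus WT. For 1416007_at the normalized signals were 432.9, 562.1, 535.2 and 636.6 on Lkb1 KO 4 to 7, against 776.0, 664.6 and 642.6 on Lkb1 WT 5 to 7, so the groups did not overlap. On the other 2 probe sets Lkb1 KO 5 was the highest KO array and lay within or above the WT arrays, and the groups overlapped. None passed (limma adjusted p = 0.179, 0.397 and 0.25 over probe sets, and 0.373 over genes for the brightest). As deposited, the 3 differences were 0.07, 0.11 and 0.12.

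Notch1 encodes the receptor whose signal commits progenitors to the T lineage. Its brighter probe set (1418634_at) had normalized signals of 882.1, 965.3, 951.2 and 965.3 on Lkb1 KO 4 to 7, against 757.5, 804.3 and 935.3 on Lkb1 WT 5 to 7. WT 7 lay above KO 4, so the groups overlapped. The difference was 0.18 (95% interval -0.05 to 0.41, limma adjusted p = 0.308), and 0.30 on the dimmer probe set 1418633_at (adjusted p = 0.295 over probe sets). In the signals as deposited, where 17% of genes were called higher in KO and 0.533% lower, Notch1 passed as higher by 0.61 (limma adjusted p = 0.0384), while Blk and Cd22 did not pass.

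**Figure D2:**
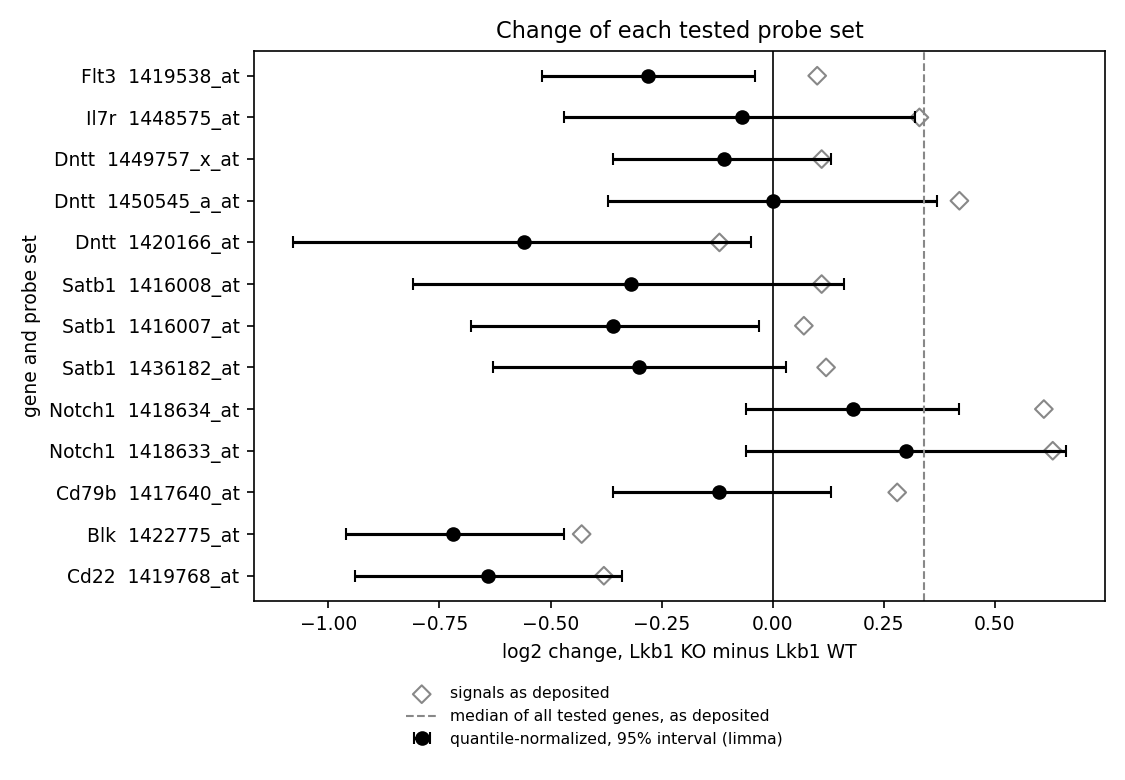
Change of the 13 tested probe sets, as log2 level in Lkb1 KO minus Lkb1 WT. Black points are quantile-normalized differences with 95% intervals from limma, grey diamonds the differences of signals as deposited, and the dashed line the median of all tested genes as deposited, at 0.34. Blk and Cd22 lie below 0 in both scalings, and Flt3, Il7r, Satb1, Cd79b and the brightest Dntt probe set change side.

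The 2 signalling chains of the B cell antigen receptor differed in whether they were seen at all. Cd79a had deposited signals of 1.2, 9.1, 1.3 and 13.5 on Lkb1 KO 4 to 7, against 6.7, 5.3 and 3.2 on Lkb1 WT 5 to 7. No array exceeded background, so no difference is given. Cd79b had normalized signals of 355.0, 307.5, 331.7 and 329.9 on Lkb1 KO 4 to 7, against 384.0, 316.6 and 383.9 on Lkb1 WT 5 to 7. These overlapped, with KO 4 above WT 6, and the difference was -0.12 (95% interval -0.35 to 0.12, limma adjusted p = 0.514).

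Blk is a kinase of the Src family that acts downstream of the B cell receptor. Its single probe set (1422775_at; gene at chromosome 14, 63372837 to 63417187) had normalized signals of 51.4, 55.5, 49.7 and 52.1 on Lkb1 KO 4 to 7, against 81.7, 101.6 and 106.8 on Lkb1 WT 5 to 7. The 4 KO arrays lay close together and all below WT, and all 7 exceeded background. The level was 6.09 ± 0.05 (SD, n = 4) in Lkb1 KO, against 6.81 ± 0.17 (SD, n = 3) in Lkb1 WT, a difference of -0.72 ± 0.10 (SE, limma adjusted p = 0.0179). As deposited, the signals were 62.8, 61.1, 52.3 and 54.0 on KO 4 to 7 and 84.2, 93.0 and 73.2 on WT 5 to 7, again without overlap, and the difference was -0.43 (limma adjusted p = 0.124).

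CD22 is a sialic acid-binding receptor of B cells that dampens antigen receptor signalling. Its brighter probe set (1419768_at; gene at chromosome 7, 30865404 to 30880342) had normalized signals of 56.0, 35.4, 46.5 and 40 on Lkb1 KO 4 to 7, against 83.9, 77.4 and 71.9 on Lkb1 WT 5 to 7. All KO arrays lay below all WT arrays, and all 7 exceeded background. The level was 5.91 ± 0.21 (SD, n = 4) in Lkb1 KO, against 6.55 ± 0.09 (SD, n = 3) in Lkb1 WT, a difference of -0.64 ± 0.13 (SE, limma adjusted p = 0.0308). In the deposited signals Cd22 overlapped, since KO 4, at 69.0, lay above WT 7, at 49.2, and the difference was -0.38 (limma adjusted p = 0.206). The second Cd22 probe set (1419769_at) exceeded background on no KO array and on 1 WT array, so it neither repeats nor contradicts the change.

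Of the 8 genes tested, 2 fell and none rose, beside the 2.96% and 2.48% of all genes. In 3 of the 8 the groups did not overlap, beside 24.1% of all genes, and in each KO lay below WT, as in 12.7% of all genes, with 11.4% the other way. An unadjusted p under 0.05 was found for 3 of the 8, beside 25.3%. Over probe sets, 2 of the 13 tested fell and none rose, beside 1.96% and 2.12% of all 13575 (4.08% in all), and 4 did not overlap, beside 22.5%. The median change of the 8 genes was -0.20, and that of all tested genes -0.02. The filter leaves out 2 of the 10 genes, and nothing particular to the set is read from these counts.

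Neither call held in every fit that left out 1 array. With each array left out in turn, Blk passed in 4 of 7 fits and Cd22 in 1, and the differences ran from -0.82 to -0.66 for Blk and from -0.72 to -0.56 for Cd22. Blk was lost without Lkb1 KO 7 (limma adjusted p = 0.0576), WT 6 (0.051) or WT 7 (0.0543). Cd22 kept its call only without Lkb1 KO 4, and the other 6 fits gave adjusted p of 0.0625 to 0.0838. Both differences kept their sign with the Actb 3' to 5' signal ratio as a covariate (-0.80 for Blk and -0.81 for Cd22), but neither passed (adjusted p = 0.47 for each). That ratio, a sign of RNA length, ranged from 11.41 to 12.29 on KO arrays and from 12.6 to 13.11 on WT arrays (exact permutation p = 0.0571, two-sided).

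**Figure D3:**
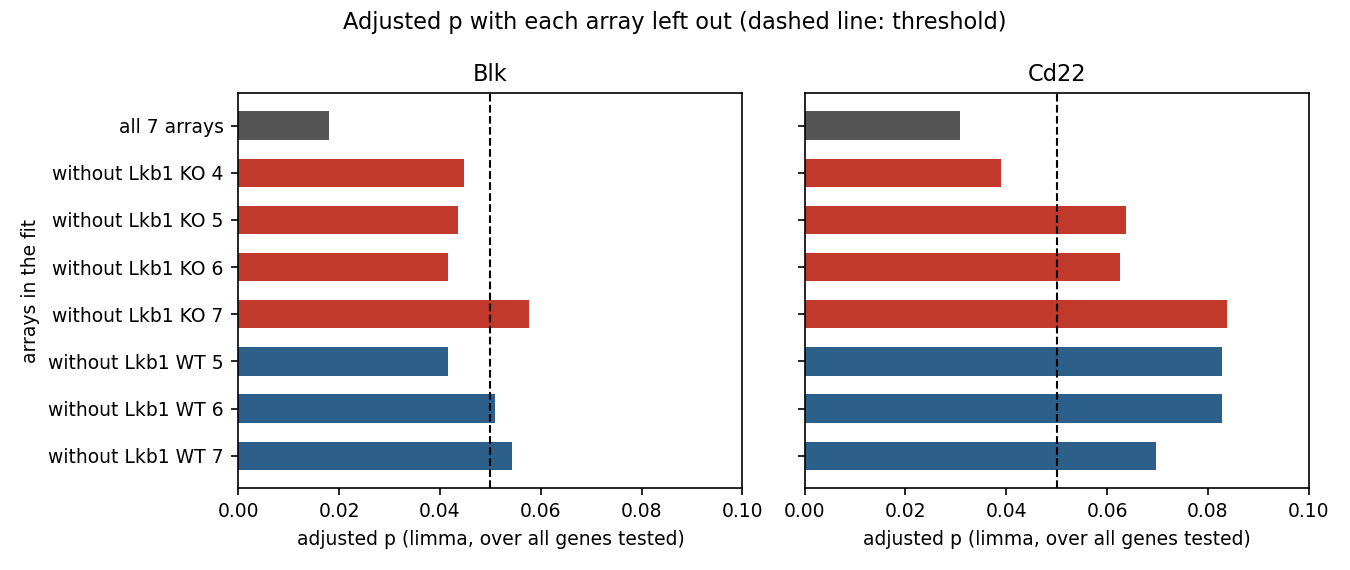
Adjusted p of Blk and Cd22 (limma, over all genes tested) with all 7 arrays (grey) and with each Lkb1 KO (red) or Lkb1 WT (blue) array left out. The dashed line is the threshold of 0.05. Blk crosses it in 3 fits and Cd22 in 6.

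Markers of other cell types that the gate could hold were measured beside these genes. Of 8 markers of mature B and plasma cells, 7 had a probe set and 4 were tested. Of these Sdc1, a surface proteoglycan of plasma cells, fell (-1.17 ± 0.27, SE, limma adjusted p = 0.045), and it passed in none of the 7 fits without 1 array. Ighm (-0.53, adjusted p = 0.593), Cd37 (-0.25, adjusted p = 0.444) and Jchain, the chain that joins secreted immunoglobulins (-1.32, adjusted p = 0.338), did not pass. The median change of the 4 was -0.85, or -0.47 as deposited. The summed normalized signal of the list ran from 1653 to 5623 in KO and from 2890 to 7842 in WT, which overlap. Most of these sums is Ighm itself, with mean normalized signals of 2870 in KO and 3929 in WT. Cr2, a complement receptor of mature B cells, exceeded background on 3 of the 7 arrays, with a mean deposited signal of 11.7 in KO and 17.5 in WT. Of 8 T and NK cell markers, 6 had a probe set, none was bright enough to test, and 4 had means at or below background, with Cd3e and Cd3g above it on no array.

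In the deposited signals, Lkb1 KO 4 and KO 5 were the highest KO arrays for both Ighm and Blk (62.8 and 61.1 for Blk, against 52.3 and 54.0 on KO 6 and 7). Among WT arrays Ighm was highest on WT 5 and Blk on WT 6. Cd22 was highest on KO 4 in KO and on WT 5 in WT, as Ighm was. On KO 5, the other KO array of high Ighm, Cd22 was the lowest of the 7 arrays, at 38.2. KO 4 and KO 5 were also the brightest KO arrays as deposited, with trimmed means of 428 and 397.1, against 366.2 and 362.5 on KO 6 and 7. After normalization Blk was at 51.4, 55.5, 49.7 and 52.1 on KO 4 to 7, so KO 7 lay above KO 4. WT 5 was then the lowest WT array for Blk, at 81.7. Cd22 stayed highest on KO 4 in KO and on WT 5 in WT, and lowest on KO 5, at 35.4. The part of B cell RNA in the Blk and Cd22 values was not tested. Without the 3 arrays of most Ighm signal (KO 4, KO 5 and WT 5), a choice made after seeing the values, the differences were -0.82 for Blk and -0.59 for Cd22, with 2 arrays left in each group (limma adjusted p = 0.146 and 0.154). In bulk samples, fewer cells of a type and less RNA per cell cannot be told apart.

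**Figure D4:**
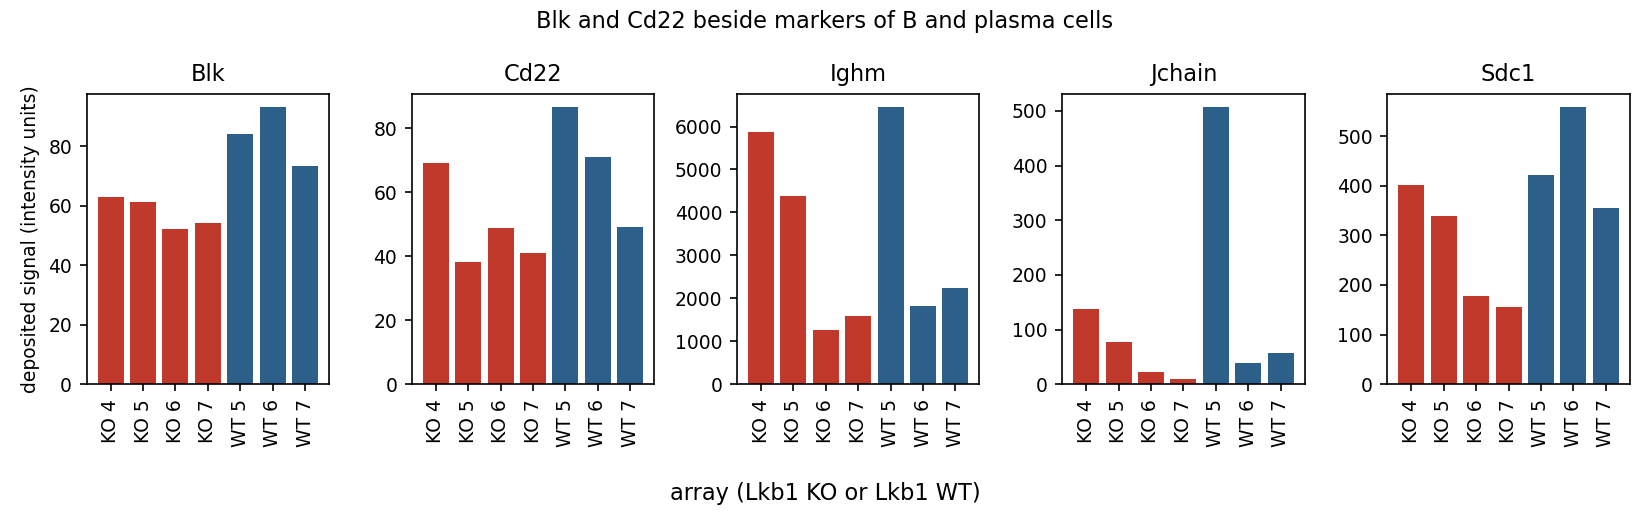
Deposited signal, in intensity units, of Blk and Cd22 and of the B and plasma cell markers Ighm, Jchain and Sdc1 on each array (4 Lkb1 KO in red, 3 Lkb1 WT in blue). Ighm is highest on KO 4, KO 5 and WT 5. Blk is lower on every KO array than on every WT array and, within KO, highest on KO 4 and KO 5, the brightest KO arrays as deposited.

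Markers of neutrophils and monocytes fell in 7 of 8 genes, among them the granule protein genes Ngp (-1.90, limma adjusted p = 0.00644), Camp (-1.83, 0.00644) and Ltf (-2.24, 0.0106). The other, Itgam, an integrin chain of myeloid cells, differed by 0.40 with every KO array above every WT array and did not pass (adjusted p = 0.0663). Their summed signal lay between 8525 and 11960 in KO, against 25480 to 34950 in WT. Plasmacytoid dendritic cell markers, 3 of them tested, did not pass, with sums of 1271 to 1458 in KO and 1059 to 1199 in WT. Irf8 makes up most of these sums, with mean normalized signals of 1169 in KO and 920.1 in WT. The changes were 0.34 for Irf8, 0.17 for Bst2 and, the other way, -0.64 for Ccr9 (limma adjusted p = 0.0687, 0.565 and 0.142). Erythroid markers gave sums of 612.5 to 772.6 in KO and 844.8 to 1088 in WT. Of 4 tested, Hba-a2, an alpha globin gene, was higher (0.43, limma adjusted p = 0.0326). Ermap, an erythroid membrane protein gene, was lower (-1.21, adjusted p = 0.0223). Car1 (-1.05, adjusted p = 0.0595) and Klf1 (-0.46, adjusted p = 0.0687) did not pass, with every KO array below every WT array in each. Of 5 stromal markers Col1a2, a collagen chain, was tested and fell (-0.94, adjusted p = 0.0425), and the sums were 203 to 321.1 in KO and 352.5 to 585.5 in WT. Most of these sums is Col1a2 itself, with mean normalized signals of 212.9 in KO and 425 in WT. The other stromal markers were too dim to test, with Col1a1 above background on no array. They differed by -0.25 (Col1a1), -0.39 (Cxcl12), 0.23 (Lepr) and 0.24 (Col3a1). The part of these cells in the changes of Blk and Cd22 was not tested. Among genes of the LSK gate, Kit fell (-0.43 ± 0.10, SE, adjusted p = 0.0465; 0.01 as deposited, -0.26 and not called with median centring, and not called in any of the 7 fits that leave out an array). Ptprc and Cd34 did not pass, and Ly6a, which encodes Sca-1, was not analysed here.

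The wider lymphoid programme was read from lists of neighbouring genes. Among factors that set up the B lineage, none of 8 tested genes passed. Pou2af1, a coactivator of immunoglobulin promoters, averaged 5.13 in KO and 6.32 in WT (log2 level; difference -1.19 ± 0.32, SE, limma adjusted p = 0.0647), and WT 5, the array of highest Ighm, was its highest. Its deposited signals were 21.9, 37.7, 13.8 and 13.6 on KO 4 to 7, against 111.7, 31.3 and 46.6 on WT 5 to 7. The groups overlapped, and KO 6 and KO 7 lay at about the background of 13.64. Irf8, a factor of B cells and monocytes, differed by 0.34 (adjusted p = 0.0687), and the list's median was -0.18. Among genes of the pre-B and B cell receptor, none of 9 passed, with a median of -0.06. Its members of lowest p were Cd24a, a surface protein of early B cells (-0.27, adjusted p = 0.125), and Vpreb3 (-0.34, adjusted p = 0.155).

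Of 8 tested genes of lymphoid-primed progenitors, Cd48, an adhesion receptor of progenitors past the stem cell stage, rose (0.47 ± 0.10, SE, limma adjusted p = 0.0365) and none fell, with a median of -0.11. Cd52, a small surface protein of lymphocytes, differed by -0.28 (adjusted p = 0.118). Of 16 tested genes of FLT3 and interleukin-7 receptor signalling none passed. Their median was -0.21, or 0.20 as deposited, beside -0.02 and 0.34 over all tested genes. The kinase gene Jak2 (-0.38, adjusted p = 0.0545) and Cish, a feedback inhibitor induced by cytokines (-0.37, adjusted p = 0.109), had the lowest p. Among Ikaros family genes and their chromatin partners none of 12 passed, with a median of -0.06. The histone deacetylase gene Hdac2 differed by 0.61 (adjusted p = 0.0611) and Mta1, of the NuRD complex, by -0.66 (adjusted p = 0.12).

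In the Notch pathway, 1 of 23 tested genes fell and none rose, with a median of -0.05. It was Adam17, a protease that can cut Notch receptors at the cell surface (-0.61 ± 0.10, SE, limma adjusted p = 0.023), which passed in 2 of the 7 fits without 1 array. It did not pass as deposited (-0.18, adjusted p = 0.558), with median centring (-0.44, 0.0548) or as the mean over its 3 probe sets (-0.36, 0.0955). Notch2, a receptor of the same family as Notch1, averaged 10.63 in KO and 11.10 in WT (log2 level; difference -0.48, adjusted p = 0.0612). Of 4 tested early T lineage genes, Thy1 rose (0.47 ± 0.11, SE, adjusted p = 0.0417) and none fell, with a median of -0.33. Thy1 is a surface protein of T cells that mouse stem cells carry as well. Lat, an adaptor of T cell receptor signalling, differed by -0.25 (adjusted p = 0.313), and Cd48 and Thy1 each passed in none of the 7 fits without 1 array.

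**Figure D5:**
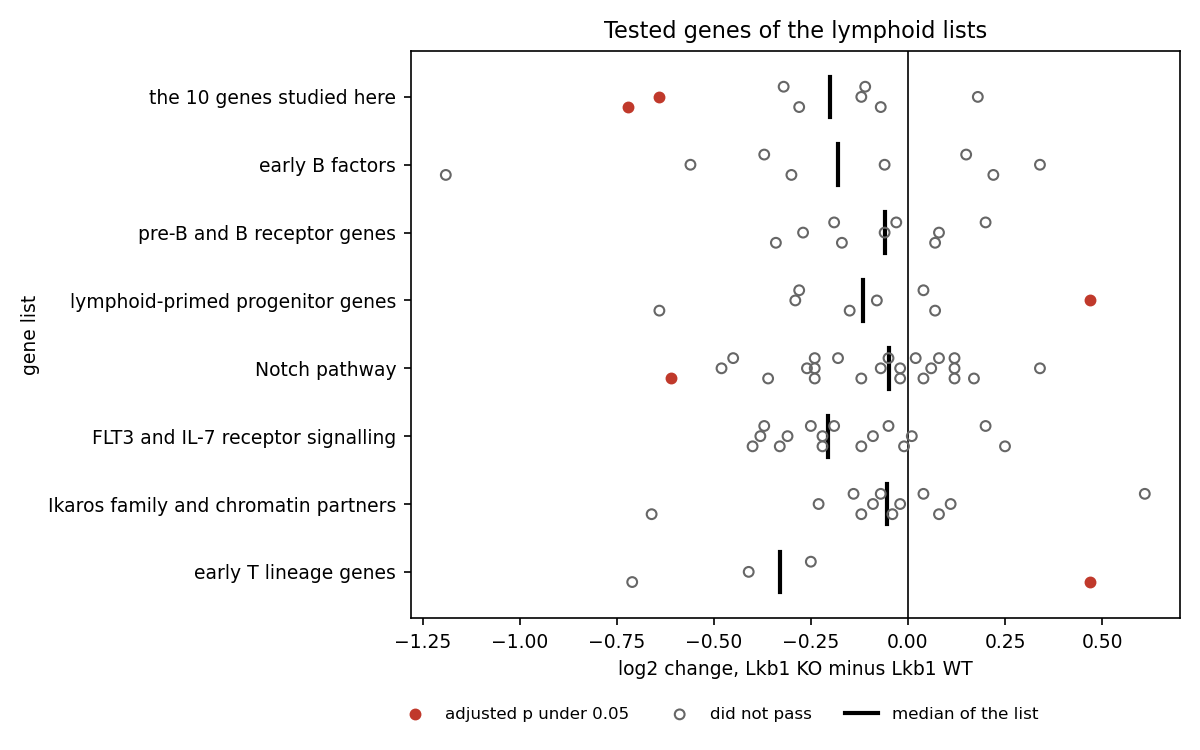
Change of each tested gene, as log2 level in Lkb1 KO minus Lkb1 WT, for the 8 tested genes of the studied set and for the neighbouring lists. Filled points passed (limma adjusted p under 0.05), open points did not, and black bars are medians. Filled points are Blk, Cd22 and Adam17 below 0 and Cd48 and Thy1 above it.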

How the data were processed

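RNA from 7 samples of sorted LSK cells was amplified and hybridised to Affymetrix arrays, per the labels' protocols. The deposited table holds 1 linear signal intensity per probe set and array. MAS5 is named as the tool, per the submitters' processing notes, without a version or scaling target. The labels name the 430 2.0 array, while the table holds 22690 probe sets (64 controls), that of a smaller design. Of the 22626 others, 20380 had 1 gene symbol in the platform annotation, 691 several and 1555 none. Signals were analysed as log2(signal + 16), quantile-normalized over non-control probe sets. Probe sets with a mean above the 40th percentile were tested, a gene by its brightest one (8077 genes) and, separately, every probe set (13575). limma 3.58.1 in R 4.3.3 compared KO with WT on 5 residual degrees of freedom, and p-values were adjusted by Benjamini-Hochberg over all features tested. The method was tested on simulated data. Background was the 95th percentile of 189 readings of 27 control probe sets. Single array measures were compared by exact permutation over 35 splits. The number of arrays limits the precision. All member probe sets, passing list members (up to 4 per list, otherwise the 2 of lowest p) and Stk11 are named. Further alternatives varied pseudocount, scaling, filter, prior, weights, covariates and samples. Members and lists were chosen with earlier results of these data known.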

Additional observations from a re-analysis of the deposited data

Results flagged for a closer look

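In Lkb1 KO, 1 array stood apart from the other 3 for the brighter Notch1 probe set (1418634_at). Lkb1 KO 4 was at 9.81 on the log2 scale, while KO 5 to 7 were at 9.92 to 9.94, and its gap to the nearest array was 0.837 of the group's range, above Dixon's 95% critical value for 4 samples. Chance flags about 1 group in 20 by this measure, and 17 probe sets were examined. WT arrays, at 9.60 to 9.89, were not examined, since 3 samples are too few. Without KO 4 the Notch1 difference did not pass either.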

How the results depend on the processing

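The 2 genes called in the gene fit, Blk and Cd22, were also called with pseudocounts of 1 and 64, median centring, cyclic loess, array weights and the mean over probe sets, and with an intensity trend and robust prior, where Flt3 was called too. The count was 1 with the scaling as deposited (Notch1, higher), 1 without the filter (Blk), 0 above the 60th percentile, where Blk and Cd22 are too dim to enter, 0 with the Actb ratio as a covariate, 0 without the 3 arrays of most Ighm, and 0 to 2 without 1 array. The 2 probe sets called in the probe set fit became 1 as deposited, 0 without the filter, 0 above the 60th percentile, 1 with array weights, 0 with the Actb ratio and 0 to 1 without 1 array. The cause was not tested, except that fewer arrays or more genes enter some fits. With the Actb ratio limma called 0 of all genes, and 713 had an unadjusted p under 0.05. The ranges of that ratio do not overlap between KO and WT, so it and genotype are hard to separate in 1 fit. With it the SE was 0.21 for Blk and 0.25 for Cd22, against 0.10 and 0.13 without it. Over all genes, the count of 439 was 1415 as deposited, 700 with pseudocount 64, 711 with median centring, 74 without the filter, 715 above the 60th percentile, 915 with the trend and robust prior, 45 to 195 without 1 array and 1 without the 3 arrays of most Ighm, a choice made after seeing the data. Of these calls 45.6% were higher in KO, 97% as deposited and 76.7% with median centring.

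The replicate numbers 5 to 7 are shared by the groups. Same-numbered arrays deviated together only weakly (r = 0.0292, 0.0988 and 0.0505 across genes tested). WT 6 and WT 7 each correlated best with the KO array of their own number, while WT 5 correlated best with KO 4 (r = 0.0659). The numbers were not taken as pairs, and whether they mark pairs is not known. With the replicate block, which leaves out KO 4, 0 members were called in either fit and 1 of all genes in the gene fit (Blk -0.70 and Cd22 -0.72, adjusted p = 0.104 for each).

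Differences that turned sign were never past the threshold afterwards. As deposited, Flt3 was at 0.10, Il7r at 0.33, Dntt at 0.11, Satb1 at 0.11, Cd79b at 0.28 and Kit at 0.01. With median centring Il7r was at 0.06 and Cd79b at 0.01, with the Actb ratio Satb1 was at 0.10, and Il7r was at 0.04 without KO 6 and 0.01 without KO 7, within a range of -0.17 to 0.04 without 1 array. Cd79a, Ikzf1 and the second probe sets of Il7r and Cd22 are limited by signal near background.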
